A study of Homo sapiens with 3 samples.

Results

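RNA polymerase II (Pol II) was mapped by chromatin immunoprecipitation sequencing (ChIP-seq) in LNCaP cells given an inhibitor of the protein kinase CK2 or its vehicle, and the called regions are described here along named genes. LNCaP is an established line of human prostate carcinoma cells that responds to androgens. Cells of passages 40 to 45, as labelled, were held for 3 days in medium with charcoal-stripped serum, which removes steroids. They then received DMSO (the vehicle, labelled as 25 μM) or 25 μM TBBz, a CK2 inhibitor, for 2.5 hours, with 100 nM dihydrotestosterone (DHT) present for the last 1.5 hours of each treatment. The antibody was N-20 against Pol II, and 1 library was made per treatment. The DMSO list held 21819 regions and the TBBz list 24782, together 46601 of the 59983 regions in the series. The remaining list is of CK2α in cells given 100 nM DHT for 2.5 hours per the label, longer than in the Pol II samples. It is used only where it touches these genes. TBBz was the only means of inhibition, and cells without DHT were not analysed here, so an effect on the hormone response and an effect on transcription in general cannot be told apart. TBBz appears in the source name of each Pol II sample, while the treatment label and the title of each tell the DMSO and TBBz libraries apart, and the groups follow these.

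Pol II is loaded at the gene start, often pauses shortly downstream of it, travels along the gene body and slows again after the polyadenylation site at the gene end, where it is released. Elongation factors and histone modifications control the passage from the start into the body, and the study asks whether CK2 takes part in this step. In prostate cells DHT, an androgen, raises transcription of a well-known group of genes that includes the kallikreins, among them KLK3 (prostate-specific antigen). A called region is a stretch of 201 bp centred on a pile-up of tags, with 2 narrower TBBz exceptions, and the lists give its position and no height.

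Regions were counted in 3 lists of genes: 44 androgen-response genes (median length 47.5 kb), 43 long genes (median 418 kb) and 22 housekeeping genes (median 8.09 kb). The start zone reaches 1 kb to either side of the gene start, the body runs from there to 1 kb before the gene end, and the end zone from there to 5 kb after the gene end. KLK15 and DMD were listed but could not be placed with confidence and were left out. The gene positions were written from general knowledge of hg19, since no hg19 annotation was used here, and are not printed. They were checked against gene lengths in RefSeq (GRCh38.p14), and 99 of the 111 listed genes had a Pol II region of either treatment within 1 kb of the written start. With 1 library per treatment there was no spread between replicates and no test between treatments. Intervals given with ratios are exact binomial 95% intervals that cover counting error only and take regions as independent, which regions of 1 gene are not.

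The library totals were 15466579 tags with DMSO and 22345614 with TBBz, and called regions held 6.79% and 12.6% of them. Per the file headers, the authors kept a candidate only if its tags exceeded the local 10 kb by 4-fold, and this step took out 53.7% of candidates with DMSO and 35.3% with TBBz. A strong and even Pol II signal along a gene can therefore leave a gene without regions, and what this filter contributes to any difference below was not tested. As a check of the cells, 7 of 9 prostate luminal markers had a start-zone region with DMSO and 9 of 9 with TBBz, the 2 without it being KLK3 and KLK2. None of 5 markers of other cells (PTPRC, CD3E, COL1A1, TP63 and ALB) had one in either library; the written position of TP63 did not pass the check. COL1A1 had 1 body region in each library and PTPRC 1 with TBBz.

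The promoters of 4 genes whose regions differed between the treatments are shown for reference, as the 250 bases before the gene start from RefSeq (GRCh38.p14), read 5′ to 3′ on the strand of the gene. KLK3 and KLK2 had Pol II regions at opposite ends of the gene in the 2 libraries, and ABCC4 and PRKD1 had more body regions with TBBz. Capitals mark matches to TATAAA, the TATA box, and to AGAACA, a half-site of the androgen response element, each searched on both strands.
KLK3: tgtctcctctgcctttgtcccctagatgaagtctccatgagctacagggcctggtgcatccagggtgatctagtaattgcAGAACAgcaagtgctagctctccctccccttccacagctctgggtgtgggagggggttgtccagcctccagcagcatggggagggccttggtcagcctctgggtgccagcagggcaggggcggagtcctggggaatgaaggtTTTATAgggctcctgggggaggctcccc
KLK2: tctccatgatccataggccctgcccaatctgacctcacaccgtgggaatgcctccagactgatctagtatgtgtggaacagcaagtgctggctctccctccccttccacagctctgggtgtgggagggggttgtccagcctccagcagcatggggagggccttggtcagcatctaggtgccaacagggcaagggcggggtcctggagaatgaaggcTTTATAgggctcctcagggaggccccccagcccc
ABCC4: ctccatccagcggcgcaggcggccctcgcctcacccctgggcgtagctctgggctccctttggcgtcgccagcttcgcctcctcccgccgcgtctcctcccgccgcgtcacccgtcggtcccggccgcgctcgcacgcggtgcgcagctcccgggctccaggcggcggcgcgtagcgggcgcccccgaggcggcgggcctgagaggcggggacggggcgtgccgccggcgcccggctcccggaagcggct
PRKD1: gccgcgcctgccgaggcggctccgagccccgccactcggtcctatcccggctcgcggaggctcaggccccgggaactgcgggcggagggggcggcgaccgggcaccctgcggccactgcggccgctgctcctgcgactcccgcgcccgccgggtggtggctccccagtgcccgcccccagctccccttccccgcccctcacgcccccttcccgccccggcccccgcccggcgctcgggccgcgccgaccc
KLK3 had AGAACA from base -170 to -165 and a TATAAA match on the opposite strand from base -28 to -23, counted back from the gene start. KLK2 had the TATAAA match at -34 to -29, and the promoters of ABCC4 and PRKD1 had no match to either motif in this window. Of 35116 RefSeq promoters, 10.7% held TATAAA and 12.4% held AGAACA. Among the listed genes found in that table, TATAAA was present in 6 of 32 androgen-response, 1 of 37 long and 4 of 18 housekeeping genes, and AGAACA in 2, 4 and 0 of them.

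Gene starts were bound in both treatments. Over the 109 genes, 93 had a start-zone region with DMSO and 99 with TBBz, and the zone held 105 and 120 regions. GRHL2, RAD51B and YWHAZ, 3 of the 6 genes with a TBBz start region only, were placed through that region, since their written length did not match RefSeq, so the placing itself fixed their difference. Among the 92 genes placed by length, 79 had a start-zone region with DMSO and 82 with TBBz, with 89 and 100 regions. Of the DMSO regions in start zones, 97.1% had a TBBz centre within 500 bp, against 82.1% of the whole DMSO list. The zones differed in list order. Start, body and end regions had median places at 20.6, 72.8 and 63.7% of the DMSO list and 20.2, 68.8 and 53.6% of the TBBz list. What this order contributes to the sharing in each zone, here and below, was not tested. TMPRSS2, a membrane serine protease and a standard androgen-induced gene, had start regions at 0.05 kb with DMSO and 0.11 kb with TBBz, at places 55 and 10 of the lists. ELL2, an elongation factor, had 1 region 0.29 kb after the start in each library, and SGK1, a hormone-induced kinase, had 1 each at -0.03 kb with DMSO and -0.23 kb with TBBz. None of these 3 genes had a body region in either library. The written length of SGK1 did not match RefSeq, so a region near its start was a condition of its placing.

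KLK3 and KLK2, whose difference was known from an earlier description of these data, departed from this pattern. With DMSO, KLK3 had a single region, chr19:51364817-51365017 (hg19), 0.90 kb after the gene end. With TBBz its single region was chr19:51358145-51358345, 0.07 kb after the gene start, and no region stood at the end. KLK2, a related protease in the same cluster, had a single DMSO region at chr19:51383399-51383599, 0.32 kb before the gene end. With TBBz it had chr19:51376205-51376405, 0.38 kb before the start, and another at -3.97 kb. Within these zones, both genes thus carried a called region only at the end with DMSO and only at or before the start with TBBz. With the end zone drawn out to 10 kb, KLK3 had 1 DMSO and 2 TBBz regions from start to end, and KLK2 had 2 and 2. The TBBz region that KLK3 gained in this way is the one at -3.97 kb from the KLK2 start. KLK4, the neighbouring kallikrein, did not share this: its DMSO regions at 1.44 and 2.25 kb after the start had TBBz partners at 1.43 and 2.28 kb. In the CK2α list, KLK2 had a region at chr19:51383369-51383569, beside the DMSO Pol II region at its end, and KLK3 and KLK2 had CK2α regions at -4.91 and -4.54 kb from their starts.

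Gene ends carried fewer regions with TBBz. The end zones of the 109 genes held 30 regions with DMSO and 13 with TBBz, a ratio of 0.433 (0.207 to 0.856), while the whole TBBz list was the longer one. In androgen-response genes there were 14 and 7, in housekeeping genes 12 and 5, and in long genes 4 and 1. End zones held more DMSO regions in 17 genes, more TBBz regions in 2 and equal numbers in 9, and 81 genes had none. Of the 30 DMSO regions, 23.3% had a TBBz centre within 500 bp (9.93 to 42.3%), against 82.1% of the whole DMSO list. Within 2 kb the shares were 36.7% and 86.1%. Put the other way, 23 of the 30 had none within 500 bp, while 17.9% of the whole DMSO list had none (13.9% within 2 kb).

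Among androgen-response genes, 8 had an end region with DMSO only. Besides KLK3, KLK2 and GRHL2 they were FKBP5, ACSL3, TIPARP, SORD and ALDH1A3. FKBP5, a co-chaperone of steroid receptors, had it 4.55 kb after the gene end (chr6:35536713-35536913). The nearest TBBz centre was 21635 bp away. ACSL3, a long-chain acyl-CoA synthetase, had it at 2.38 kb (chr2:223811641-223811841), and SORD, sorbitol dehydrogenase, at 1.06 kb (chr15:45370344-45370544). For TIPARP, a member of the poly-ADP-ribose polymerase family, it stood at 0.94 kb (chr3:156425397-156425597). ALDH1A3, a retinaldehyde dehydrogenase, had 2 DMSO regions at 0.33 and 1.53 kb after its end, and GRHL2, an epithelial grainyhead-like factor, had 2 at -0.74 and 0.73 kb. These DMSO regions stood at places from 172 (KLK3) to 20173 (TIPARP) of 21819. The written lengths of FKBP5 and GRHL2 did not match RefSeq, so their gene ends were not checked by length. In androgen-response genes placed by length, end zones held 11 DMSO and 7 TBBz regions, a ratio of 0.636. Over the 3 lists, genes placed by length had 25 and 12, a ratio of 0.480.

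The opposite case was found in TMPRSS2, with a TBBz region 0.82 kb before its end (chr21:42837200-42837400), and in SPDEF, a prostate ETS factor, with TBBz regions 0.27 and 1.22 kb after its end. The housekeeping genes were not listed for a response to androgen, which was not examined in them. Among them EEF1A1 (translation elongation factor) had a DMSO end region at 1.28 kb, ENO1 (enolase) at 3.86 kb and LDHA (lactate dehydrogenase) at 0.54 kb. PKM (pyruvate kinase) had 2 at 0.47 and 1.06 kb. YWHAZ (a 14-3-3 protein), whose written length did not match RefSeq, had 1 at 3.48 kb. None of these 5 genes had a TBBz end region. The long genes with a DMSO region only were CMIP at 1.78 kb, VPS13B at 2.93 kb and ZFAND3 at 3.17 kb.

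Some end zones also hold part of another gene. RPLP0, HSP90AB1, TPD52 and CUX1, each followed by another coding gene within 5 kb in RefSeq (GCN1, SLC35B2 and NFKBIE, MRPS28, and SH2B2), had DMSO and TBBz centres within 3 to 60 bp of each other. Such a neighbour also follows ALDH1A3 (LRRK1), LDHA (LDHC), PKM (GRAMD2A) and VPS13B (COX6C), which had end regions with DMSO only, and SPDEF (PACSIN1), which had them with TBBz only. To which gene these regions belong was not tested. Without the 23 genes followed by another coding gene in this way, a set defined once the counts were known, the end zones held 20 DMSO and 7 TBBz regions, a ratio of 0.350. With the end zone drawn out to 10 kb the counts were 38 and 26, and the ratio was 0.684. The counts in the 5 kb zone were 30 and 13, so the stretch from 5 to 10 kb added more TBBz than DMSO regions. The lower TBBz count was thus seen in the 5 kb zone and not in that farther stretch, where neighbouring genes were not examined. With the first 50% of each list the 5 kb zone held 10 and 6.

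**Figure D1:**
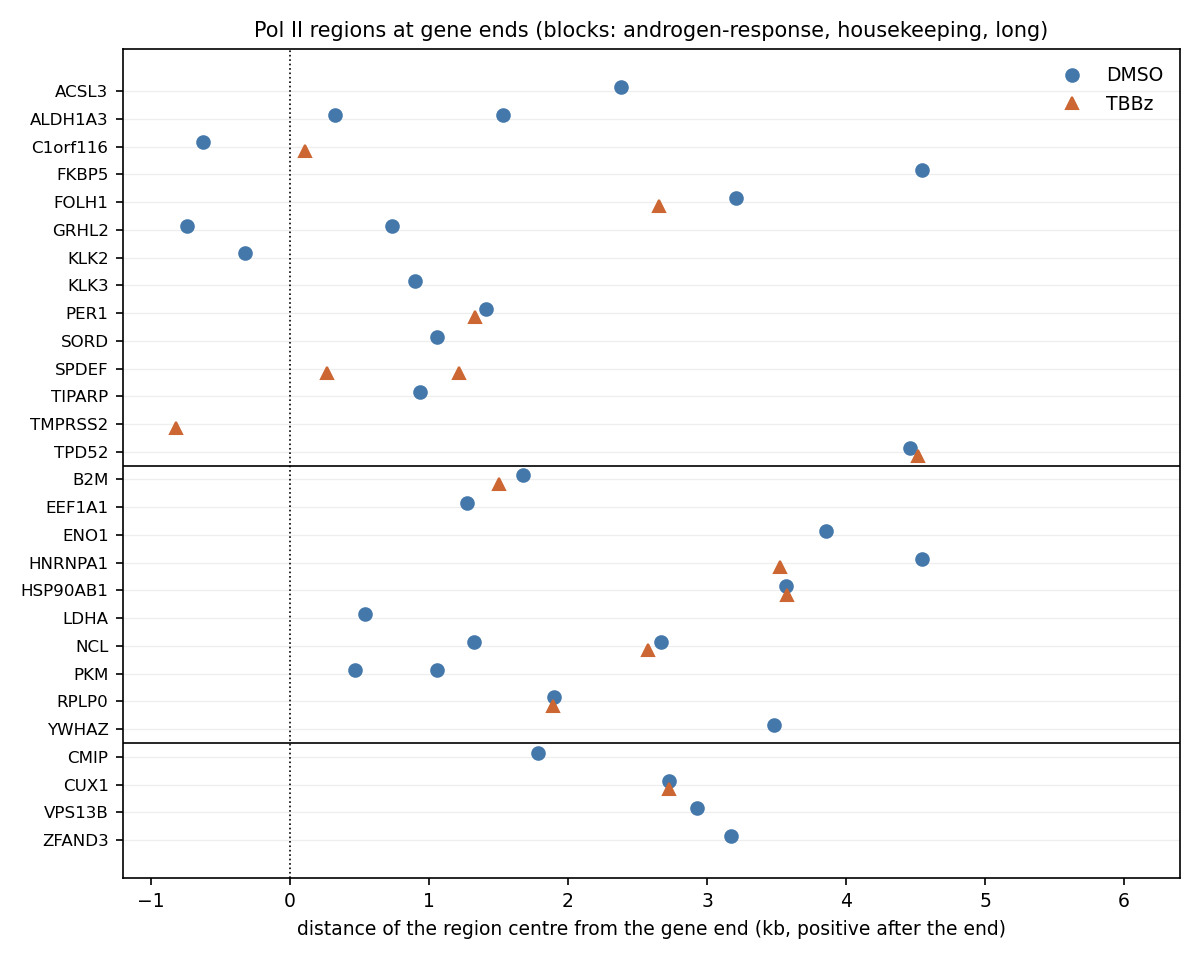
Positions of Pol II regions in the end zones of the 28 genes that had any, as distance of the region centre from the gene end in kb (horizontal axis, dotted line at the gene end), 1 gene per row. Circles are DMSO and triangles TBBz regions; 17 genes had more circles, 2 (SPDEF and TMPRSS2) had more triangles, and most triangles have a circle close by.

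Gene bodies of the androgen-response and long lists carried more regions with TBBz. Bodies of androgen-response genes held 43 regions with DMSO and 136 with TBBz, a ratio of 3.16 (2.23 to 4.57). In long genes the counts were 104 and 146, a ratio of 1.40 (1.08 to 1.82), and in housekeeping genes 5 and 6. Among androgen-response genes 16 had more body regions with TBBz, 1 had more with DMSO and 27 had equal numbers, of which 21 had none. Among long genes the numbers were 21, 3 and 19. Of the TBBz body regions, 23.5% in androgen-response genes (16.7 to 31.6%) and 38.4% in long genes (30.4 to 46.8%) had a DMSO centre within 500 bp, against 72.3% of the whole TBBz list. Within 2 kb the shares were 27.9% and 42.5%, against 78.9%. Of the whole TBBz list, 27.7% had no DMSO centre within 500 bp and 21.1% had none within 2 kb. The ratio for androgen-response genes rested partly on genes at loci whose differences were known from an earlier description of these data. Without those genes, which number 10 over the lists, the counts were 35 and 64 in androgen-response genes, a ratio of 1.83, and 58 and 91 in long genes, a ratio of 1.57. It also rested on the later places of the lists: in the first 50% of each list the counts were 17 and 25, a ratio of 1.47. Taking as many TBBz as DMSO regions, from the top of the list, the ratio was 2.93 in androgen-response genes and 1.10 in long genes.

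**Figure D2:**
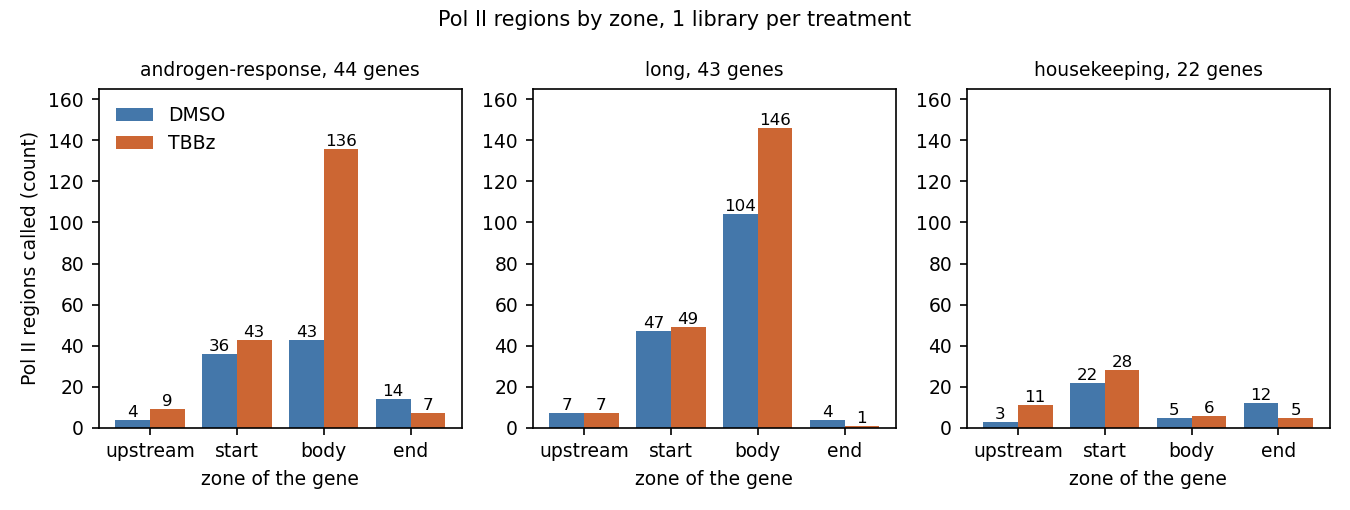
Number of Pol II regions (vertical axis) in the upstream, start, body and end zones of 44 androgen-response, 43 long and 22 housekeeping genes, with 1 library per bar and no replicates. Bodies held 136 TBBz against 43 DMSO regions in androgen-response genes and 146 against 104 in long genes (64 against 35 and 91 against 58 without the loci known beforehand), and DMSO exceeds TBBz in the end zones of each list.

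A gene was called different when 1 library had at least 2 more regions from the start to the end zone and at least 2 times as many. By this rule 8 of 44 androgen-response genes and 5 of 43 long genes had more with TBBz, and 1 gene in each list had more with DMSO, PARD3 (a cell polarity protein) among the long genes. Among 11505 windows of 100 kb that held a Pol II region, 5.68% met the same rule with more TBBz regions and 1.98% with more DMSO regions. The shares were 4.55% and 1.72% in 50 kb windows and 6.32% and 1.96% in 200 kb windows. Windows differ from genes in length, so this share is only a background for the scale of the counts. Leaving out the same 10 genes, 7 of the remaining 77 androgen-response and long genes (9.09%) had more with TBBz.

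NEDD4L, a ubiquitin ligase of 357 kb, had the largest difference of the listed genes. With DMSO it had a start region and 4 body regions, at 1.31, 34.5, 105 and 177 kb after the start. With TBBz it had a start region and 28 body regions, the last at 318 kb (chr18:56029851-56030051), and 11 of them stood beyond 200 kb, where DMSO had none. All 4 DMSO body regions had a TBBz centre within 1.5 kb. Most of the TBBz string came late in the list: in the first 50% of each list NEDD4L had 4 regions with DMSO and 7 with TBBz.

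ZBTB16, a zinc-finger repressor also known as PLZF, had the next largest difference. With DMSO its regions stood at 0.15 and 1.18 kb, and none lay deeper in the gene. With TBBz the start region at 0.16 kb was followed by 20 body regions from 20.8 kb (chr11:113950989-113951189) to 185 kb (chr11:114115701-114115901) of a gene of 191 kb. The start region was shared, and none of the 20 body regions had a DMSO region within 10 kb. CK2α had regions at 0.26 and 1.11 kb in ZBTB16 and none deeper in it.

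ABHD2, a hydrolase gene written as 114 kb long, had 1 body region with DMSO, at 10.3 kb, and 10 with TBBz, the last at 76.9 kb. This length did not match RefSeq, so the gene was placed through a region near its start. GRHL2 had body regions at 1.34 and 12.4 kb with DMSO and 11 with TBBz that reached 142 kb. Its DMSO list resumed at the gene end with the 2 regions given above, where TBBz had none. These 4 genes and SPDEF, with 0 and 3 body regions, lie at loci whose differences were known before the gene lists were written.

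The following androgen-response genes were not among those known loci. ABCC4 (MRP4), an efflux transporter of 282 kb, had 5 body regions with DMSO and 12 with TBBz. The DMSO regions stood at 30.05, 30.9, 55.0, 61.3 and 173 kb. All but the one at 30.9 kb had a TBBz centre within 28 bp, and the other TBBz regions stood at 12.3, 33.1, 69.9, 74.8, 82.9, 87.9, 104 and 109 kb. LRIG1, a transmembrane regulator of growth factor receptors, had 2 and 9, with DMSO regions at 24.8 and 82.0 kb that had TBBz partners within 500 bp and TBBz regions without one at 7.60, 9.03 and 17.1 kb among others. FOLH1, which encodes prostate-specific membrane antigen, had 5 and 9 body regions. Its DMSO regions stood at 10.3, 12.7, 17.4, 30.4 and 31.7 kb, and the TBBz regions reached 48.7 kb. In the first 50% of each list the direction turned for FOLH1, with 6 DMSO and 3 TBBz regions from start to end.

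TPD52, a gene amplified in prostate cancer, had 4 and 7 body regions, and ALDH1A3 had 1 and 5, of which 4 TBBz regions stood at 9.75, 14.3, 18.2 and 23.1 kb. ALDH1A3 therefore had more TBBz regions in its body and 2 DMSO regions, with no TBBz region, at its end. UAP1, an enzyme of UDP-N-acetylglucosamine synthesis, had 1 and 3. FKBP5 had 3 body regions in each library. The region at 86.9 kb, chr6:35569678-35569878, was called at the same position in both, and the others stood at 20.7 and 87.6 kb with DMSO and at 78.0 and 98.3 kb with TBBz.

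Differences were not found throughout the list. From start to end zone, 21 androgen-response genes had more TBBz regions, 5 had more DMSO regions, FKBP5, ACSL3, TIPARP and SORD among them, and 18 had equal numbers. Of the equal ones, TRPM8, HPGD, INPP4B and AZGP1 had no region in either library.

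**Figure D3:**
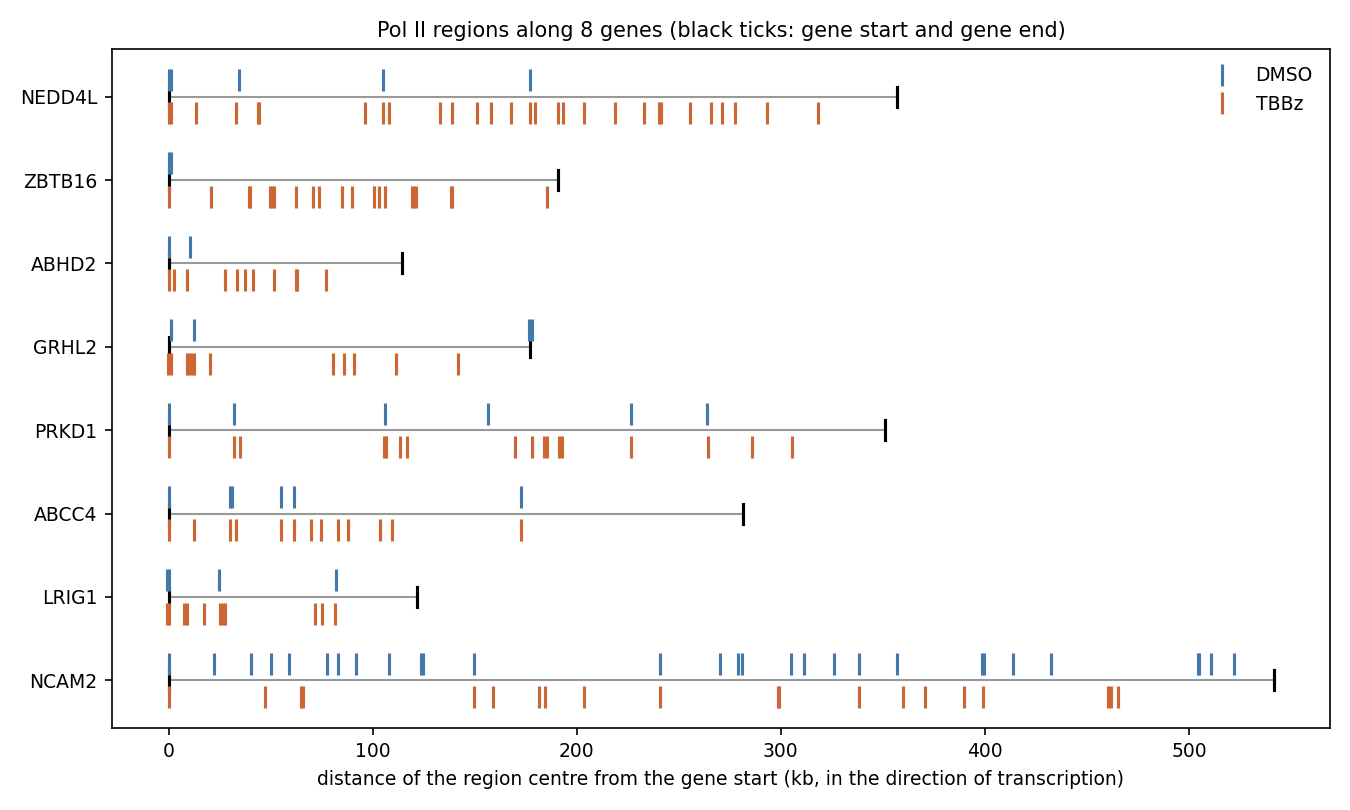
Positions of Pol II regions along 8 genes as distance from the gene start in kb, with DMSO ticks above and TBBz ticks below each gene line and black ticks at the gene start and end. NEDD4L, ZBTB16, ABHD2 and GRHL2 show TBBz regions deep in the gene where DMSO has few or none, the DMSO ticks of GRHL2 resume at the gene end, and NCAM2 has more DMSO ticks.

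Among the long genes PRKD1, which encodes protein kinase D1 and spans 351 kb, had 5 body regions with DMSO and 16 with TBBz. The DMSO regions at 32.0, 106, 227 and 264 kb had TBBz partners within 500 bp. TBBz regions without one included a group from 170 to 193 kb. GULP1, an adaptor of engulfment, had 13 and 20 body regions that stood at different parts of the gene: 5 DMSO and 15 TBBz regions lay in the first 50% of its length, and 8 and 5 in the last 50%. NCAM2, a neural cell adhesion gene of 542 kb, had more DMSO regions, with 28 in the body against 19 with TBBz. Most of them came late in the lists, from place 13286 for DMSO and from place 14421 for TBBz. PRKD1, GULP1 and NCAM2 had been seen to differ before the lists were written.

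Other long genes differed by 4 regions between start and end zone: FOXP1 (a forkhead factor, 6 with DMSO and 10 with TBBz), RERE (8 and 12), CUX1 (4 and 8) and ACACA (acetyl-CoA carboxylase, 7 and 11). Taking as many TBBz as DMSO regions, ACACA had 7 and 7, RERE 8 and 10, CUX1 4 and 7 and FOXP1 6 and 9. In the first 50% of each list the direction turned for FOXP1, with 2 and 1, and CUX1 had 3 and 3. Several other genes with more TBBz regions also had most of them late in the list. From start to end zone, in the first 50% ZBTB16 had 2 and 6, ABHD2 1 and 2 and GRHL2 2 and 3. ABCC4 had 1 and 2 there, LRIG1 2 and 2, PRKD1 2 and 3 and ACACA 3 and 4. RERE differed, with 5 and 6 of its 8 and 12 regions in the first 50%. In 19 of 43 long genes the body counts were equal. Of these, EXT1, PTPRK, TBC1D5, EXOC4, TRPS1, TCF12, KDM4C, BCAS3, XRCC4 and ZFAND3 had no body region in either library although each had a start region in both. The written lengths of KDM4C and XRCC4 did not match RefSeq. A region near the start was therefore a condition of their placing, and the extent of their bodies was not checked by length.

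**Figure D4:**
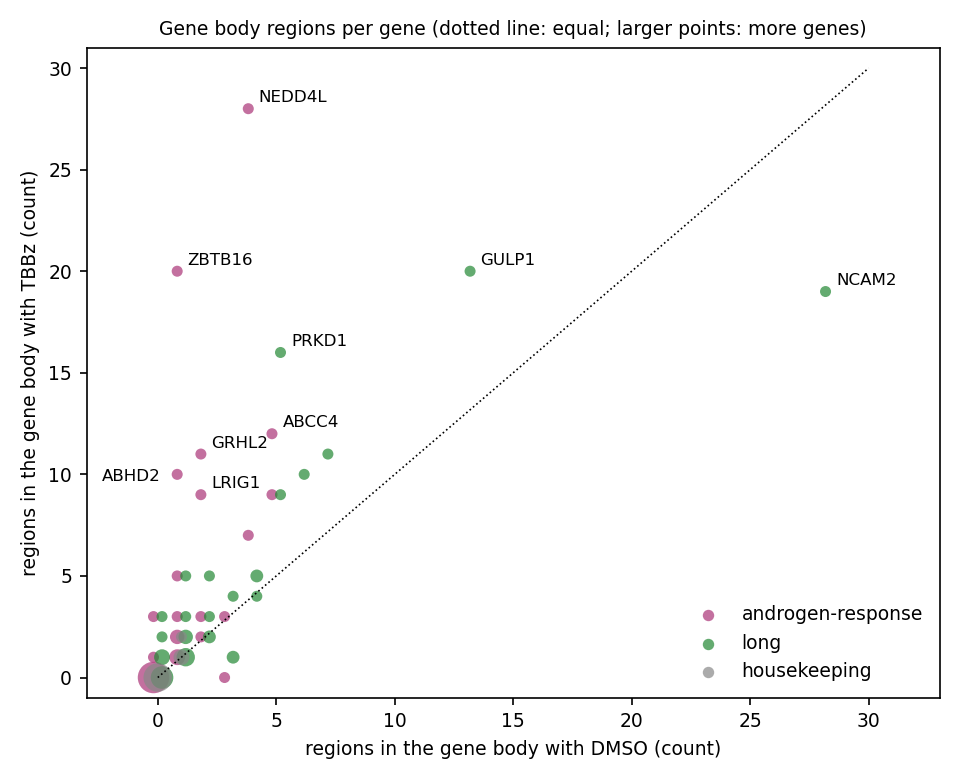
Number of regions in the gene body with DMSO (horizontal axis) and TBBz (vertical axis) for 109 genes, 1 library per axis, with points moved slightly sideways by list and larger where several genes coincide. Genes above the dotted line had more TBBz regions; NEDD4L (4 and 28) and ZBTB16 (1 and 20) lie farthest above it and NCAM2 (28 and 19) farthest below.

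The distances from the start are given for the 13 androgen-response genes of at least 100 kb, 4 of which (NEDD4L, ZBTB16, ABHD2 and GRHL2) were known beforehand to differ. Between 1 and 25 kb there were 9 DMSO and 18 TBBz regions, between 25 and 50 kb 5 and 16, between 50 and 100 kb 9 and 30, and between 100 and 200 kb 4 and 29. Beyond 200 kb, which 4 of these genes reach, there were 0 and 11, and all 11 were in NEDD4L. Without the 4 known genes the counts over these distances were 4 and 7, 4 and 6, 9 and 15, 2 and 7, and 0 and 0. In the 43 long genes the counts over the same distances were 7 and 13, 7 and 11, 14 and 19, 30 and 44, and 46 and 59. Leaving out the loci chosen with a known result, the 49 genes of at least 100 kb in both lists together had 45 DMSO and 67 TBBz regions in the first 50% of their length and 32 and 59 in the last 50%. The ratios were 1.49 and 1.84, and their difference was not tested.

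CK2α regions were found at many starts and in some bodies of these genes. The CK2α library, which came from cells without inhibitor, had a start-zone region in 22 of 44 androgen-response, 30 of 43 long and 15 of 22 housekeeping genes. Start zones of the 3 lists held 25, 37 and 15 CK2α regions, bodies 21, 49 and 3, and end zones 7, 0 and 4. Genes with more TBBz body regions and no CK2α region in the body included NEDD4L, ABHD2, GRHL2, SPDEF, TPD52, ALDH1A3, UAP1, PRKD1 and GULP1. Among those with CK2α regions in the body, FOXP1 had 5, ACACA 4, CUX1 and ABCC4 3 each and FOLH1 2. Those of ABCC4 stood at 30.1, 54.2 and 109 kb. FKBP5 had 5 CK2α regions in the body, of which the one at 86.9 kb lay at the shared Pol II region. Of the 8 androgen-response genes with an end region with DMSO only, KLK2, SORD, ALDH1A3 and TIPARP also had a CK2α region in the end zone, at -0.35, 1.12, 1.55 and 1.33 kb from the gene end. KLK3, FKBP5, ACSL3 and GRHL2 had none there. Among the 4 androgen-response genes with an end region in both Pol II libraries, C1orf116, PER1 and TPD52 also had a CK2α region there. FOLH1 had none, so a CK2α end region was not particular to the genes with a DMSO end region only.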

How the data were processed

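Pol II ChIP-seq was analysed in 1 DMSO and 1 TBBz library, grouped by the treatment labels. The submitters' processing notes name Bowtie, HOMER and hg19, with no versions. HOMER was run by the authors on each library with no control, per the file headers, which give a region size of 200 bp, at least 500 bp between regions and 0.001 as false discovery rate. The deposited score is 1 for every region per the authors' files and was not used; places refer to the order of the list. Starts, deposited counting from 0, were raised by 1. Region centres were assigned to gene zones, with partners within 500 bp. A region that fell in several genes of a list was counted once per zone.

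Gene positions were written by hand for hg19 and kept where the chromosome and, where listed, the strand matched RefSeq and either the length lay within 5% or 2 kb or a region lay within 1 kb of the start; 109 of 111 genes passed (length 92, strand 88 of 88 listed). Where RefSeq gives several starts, only 1 was used. The genes given in full were fixed by name, together with any gene of the androgen-response and long lists that differed by at least 4 regions. The members and lists were chosen with earlier results of these data known. Some genes of the lists enter the counts but are not reported by name here. The zone counting was tested on simulated data. Counting used pandas 2.3.3 and NumPy 2.4.6 in Python 3.11.15, intervals SciPy 1.17.1 and plots Matplotlib 3.10.9.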

Additional observations from a re-analysis of the deposited data

How the results depend on the processing

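The ratio of TBBz to DMSO regions in end zones over the 3 lists stayed below 1 under each alternative run (0.250 to 0.684), and that in the bodies of androgen-response genes stayed above 1 (1.47 to 3.85). The latter was 1.47 with the first 50% of each list and 1.83 without the loci described earlier, and the body ratio over the 3 lists was 1.32 with the first 50%. In long genes the end ratio was 0 without genes followed by another coding gene, from 2 DMSO and 0 TBBz regions. In the first 50% the difference was -3 for FOLH1 and -1 for FOXP1, against 4 for each in the full lists. The share of windows with more TBBz regions was 4.55% for 50 kb and 6.32% for 200 kb windows, and with more DMSO regions 1.72% for 50 kb windows. The first 50% of a list holds fewer regions by construction; the cause of the changes was otherwise not tested. The exclusion of the loci described earlier and of genes with a close neighbour, the limits to genes of at least 100 kb and to genes placed by length and the split by gene length were chosen after the data were seen. No paired analysis was possible because each treatment has 1 library. The libraries were not brought to equal tag numbers, and the part of depth was not tested.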

Other observations

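Housekeeping genes had more TBBz regions in the stretch from 10 kb to 1 kb before the start, with 3 DMSO and 11 TBBz regions. HSP90AB1 (at -9.09 and -9.52 kb), LDHA (-9.77 and -9.91 kb) and POLR2A (-4.93 and -4.85 kb) had 1 in each library. TBBz regions with no DMSO region in this stretch included those at -2.41 kb from the start of ACTB (cytoskeletal actin), -2.75 kb from EEF1A1, -4.81 kb from EEF2 (a translation elongation factor), -2.66 kb from TUBB (tubulin) and -1.203 and -6.55 kb from HNRNPA1 (an RNA-binding protein). The ratio was 3.67 with an exact binomial interval of 0.969 to 20.5, from counting error alone. In androgen-response genes the stretch held 4 and 9 regions, among them 2 TBBz regions before FASN (fatty acid synthase) at -6.04 and -8.10 kb and none with DMSO. In long genes it held 7 in each library. Other coding genes in this stretch were not examined.

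Start zones gained second regions in a few genes. With TBBz, GAPDH had an additional region at -0.84 kb, HSP90AB1 had 2 at -0.86 and 0.63 kb and FASN had one at 0.73 kb. Over the 109 genes the start zone held more TBBz regions in 15 genes, of which 3 were placed through such a region, more DMSO regions in 1 (TRPS1) and equal numbers above 0 in 83.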
